A study of Mus musculus with 24 samples.

Results

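Fibronectin, hyaluronan and the proteoglycans that bind hyaluronan make up much of the matrix described for the intimal cushions of the ductus arteriosus (DA), the fetal vessel that joins the pulmonary artery to the aorta and closes after birth. The genes described here are the fibronectin gene Fn1, the hyaluronan synthase genes Has1, Has2 and Has3, the proteoglycan core protein genes Vcan, Acan and Lum, the link protein gene Hapln1, the hyaluronan receptor gene Cd44 and the tenascin-C gene Tnc. They are a list of 10 symbols, each matched to 1 of the 54752 gene rows of the count table. The rule names symbols and uses no measured value, but the list was chosen with earlier results of these data known. All 10 passed the filter on low counts and were among the 16463 genes tested.

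Mouse embryos of C57BL/6 background were taken at E18.5, before the DA closes, and bulk RNA was sequenced from their DA and ascending aorta. Prdm6-deficient embryos carried Wnt1Cre and a homozygous floxed allele (Wnt1Cre;PRDM6f/f). Littermate controls carried PRDM6wt/f without Cre, with these exceptions: control DA replicate 3 was PRDM6wt/wt, and 1 Wnt1Cre;PRDM6wt/wt embryo gave both control DA replicate 2 and control aorta replicate 3. There were 7 control DA and 6 control aorta libraries beside 5 libraries of each Prdm6-deficient vessel, and Prdm6-deficient DA replicates 1 and 2 were each pooled from 2 embryos. Wnt1Cre acts in neural crest cells, so cells of other origin in these vessels keep the floxed allele, and 6 control embryos gave both vessels. The embryos behind Prdm6-deficient DA replicates 2, 5 and 7 also gave Prdm6-deficient aorta libraries, namely replicates 1 and 2, 3, and 5. Embryo numbers fall into a lower and a higher run, called the first and the second run here. In the DA the first run holds 3 Prdm6-deficient and 2 control libraries, and in the aorta it holds 2 and 1, too few controls for values of the aorta within that run.

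Hyaluronan is an unsulfated sugar polymer that synthases at the cell membrane extrude into the matrix, where it holds water. Versican and aggrecan bind it through their N-terminal domains, link proteins lock that bond, and CD44 ties the polymer to the cell. In the DA, hyaluronan and fibronectin are known to accompany the migration of smooth muscle cells (SMC) into the subendothelial space, and prostaglandin E2 acting on its receptor EP4, the product of Ptger4, is known to raise Has2 there.

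Total counts per library ranged from 15163974 to 22610547, so that 3 counts stood for 0.133 to 0.198 CPM, the count of a gene relative to the total of its library. Levels below are CPM adjusted by the TMM method, which corrects for the makeup of each library. Prdm6 itself was 58.6 to 78.5 CPM in the Prdm6-deficient DA and 84.9 to 127.5 CPM in control DA (log2 fold change -0.57, SE 0.11, adjusted p = 0.000553), and 61.9 to 81.2 CPM against 95.6 to 135 CPM in the aorta (log2 fold change -0.69, adjusted p = 0.000170). The whole gene was counted, so transcripts that lack the floxed part could still add to these values. SMC markers were abundant in every library, and the summed level of 7 SMC markers was 9717 to 11920 CPM in the Prdm6-deficient DA and 13430 to 23610 CPM in control DA, with no overlap. The summed level of 8 fibroblast markers, Lum among them, was 12050 to 14930 CPM against 5471 to 11810 CPM. The summed level of 6 melanocyte markers was 2.44 to 4.96 CPM against 32.25 to 229 CPM. All of these sums moved with genotype in the DA. Medians of the summed Schwann cell and neuron markers were 82.0 and 39.5 CPM against 29.7 and 18.2 CPM, with overlap. Within control DA, sums ranged from 25.2 to 1139 CPM for cardiomyocyte and from 19.4 to 404 CPM for mesothelial markers. The erythroid sum reached 137600 CPM in Prdm6-deficient DA replicate 1. The part of all these cell types in the results below was not tested. In bulk tissue, fewer cells of a type and less RNA per cell cannot be told apart.

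A gene was called where the adjusted p of edgeR's quasi-likelihood test was below 0.01 and the log2 fold change passed 0.5 in either direction. In the Prdm6-deficient DA against control DA, 5.43% of all tested genes were called, 2.61% higher and 2.82% lower. Of the 10 matrix genes, Hapln1, Acan and Lum were called higher and Fn1 was called lower. Levels of these 4 genes did not overlap between the groups, a separation that 5.66% of all tested genes showed, 2.73% with higher and 2.93% with lower levels. Has1, Has2, Has3, Vcan, Cd44 and Tnc were not called. The median log2 fold change of the 10 genes was 0.09, beside 0.01 over all tested genes.

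**Figure D1:**
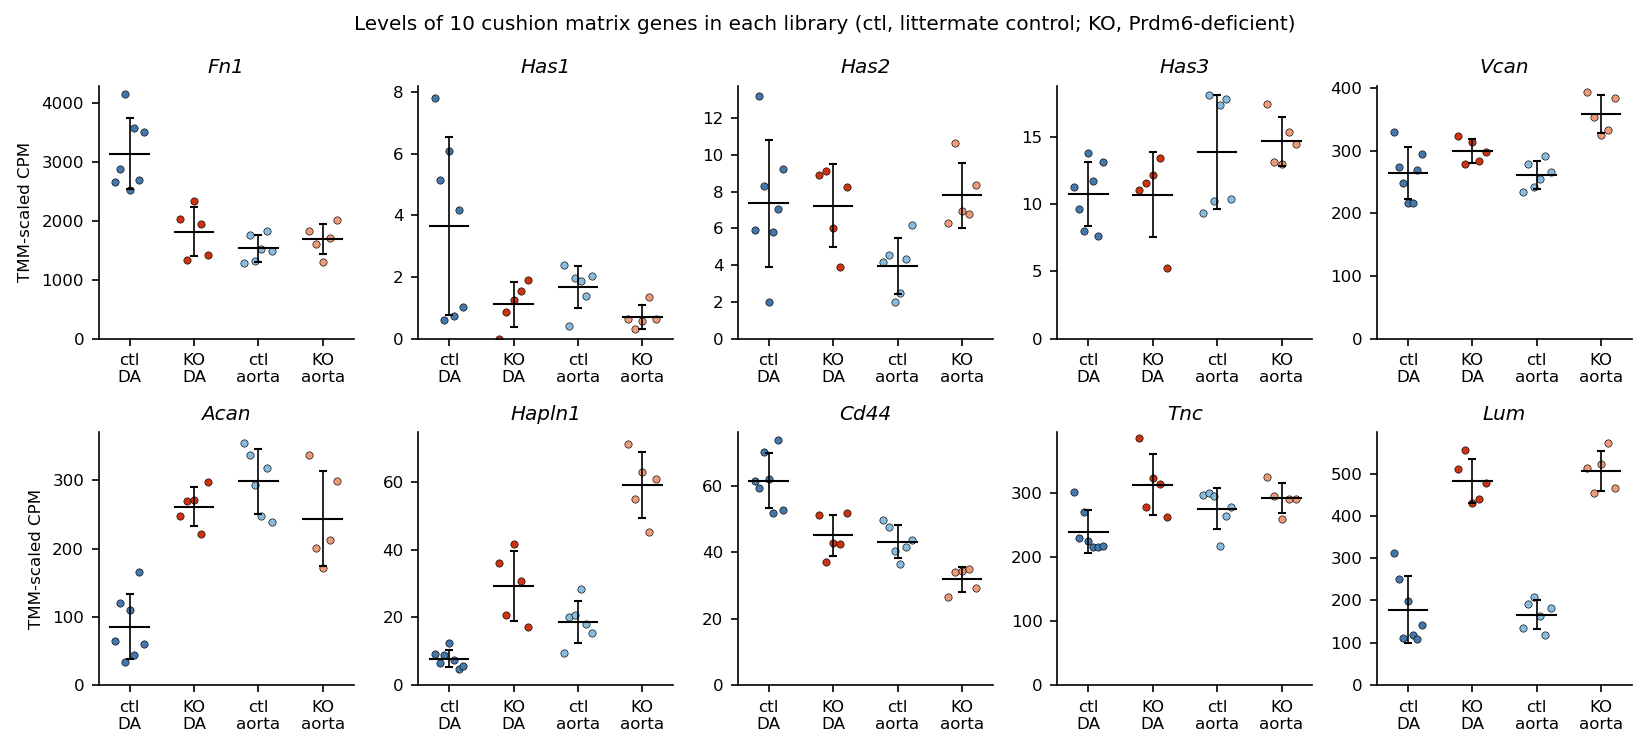
Each panel plots the TMM-scaled CPM of 1 gene in every library (points), with the mean and SD (bars), for control (ctl) and Prdm6-deficient (KO) DA and aorta; every y axis is linear and starts at 0. In the DA every KO library was below every ctl library for Fn1 and above every ctl library for Acan, whereas for Hapln1 and Lum the KO libraries were above ctl in both vessels.

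Fn1 encodes fibronectin, the glycoprotein that cells bind through integrins and lay down as fibrils. It lies on chromosome 1 (mm10, chr1:71585520-71653200, minus strand). In the Prdm6-deficient DA, Fn1 was 2025, 1339, 2334, 1946 and 1426 CPM in replicates 1, 2, 5, 6 and 7. In control DA it ranged from 2528 to 4146 CPM with a median of 2888 CPM. Every Prdm6-deficient library was below every control library, and within the Prdm6-deficient DA the 3 libraries of the first run were above the other 2. The mean fell from 3142 ± 607 CPM (SD, n = 7) to 1814 ± 421 CPM (SD, n = 5), a fitted level 0.577 times that of the control (log2 fold change -0.79, SE 0.14, adjusted p = 0.000272).

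In the aorta the levels of Fn1 lay together. They were 1818, 1605, 1306, 1711 and 2013 CPM in Prdm6-deficient replicates 1 to 5 and ranged from 1279 to 1832 CPM in control aorta, with a median of 1501 CPM. The log2 fold change was 0.14 (95% interval -0.15 to 0.44, adjusted p = 0.816). The genotype difference of Fn1 in the DA was thus below that in the aorta by 0.94 on the log2 scale (SE 0.20), and this difference between differences was itself called (adjusted p = 0.00419). The call was lost without Prdm6-deficient DA replicate 2 or 7 or Prdm6-deficient aorta replicate 1 or 5, with an adjusted p of up to 0.0127. Of all tested genes, 2.58% were called in that test of the 2 vessels, 1.66% with a lower and 0.917% with a higher value in the DA.

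Control DA held more Fn1 than control aorta (log2 fold change 1.04, SE 0.14, adjusted p = 3.39e-06), with no overlap. Between the Prdm6-deficient DA and the Prdm6-deficient aorta the log2 difference was 0.10 (95% interval -0.21 to 0.41, adjusted p = 0.910). Within the runs this difference had opposite signs, 0.48 in the first and -0.39 in the second, neither of them called. In the first run the Prdm6-deficient DA held 1946 to 2334 CPM and the Prdm6-deficient aorta 1306 to 1711 CPM. In the second run they held 1339 to 1426 CPM and 1605 to 2013 CPM. The comparisons of control DA with the Prdm6-deficient DA and with control aorta share the control DA libraries, so these values stand side by side and are not independent of each other.

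Within the runs of embryo numbers, Fn1 was lower in the Prdm6-deficient DA by a log2 fold change of -0.74 in the first run (adjusted p = 0.0327, not called) and of -1.12 in the second (adjusted p = 0.000337). Likeness was measured against 12978 tested genes, all with average levels of 1 or more in log2 CPM. Those whose log2 levels followed Fn1 most closely over all 23 libraries were Lpp (Pearson r = 0.93), Thbs1 (0.93) and Myh11 (0.92), the last being the smooth muscle myosin heavy chain. All 4 groups enter these correlations, so differences between groups are part of them. The genes tested as partners of fibronectin are given further below.

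Acan encodes aggrecan, a large chondroitin sulfate proteoglycan best known from cartilage, and Vcan encodes versican, its relative in vessels and embryonic connective tissue. Both bind hyaluronan. Acan lies on chromosome 7 (mm10, chr7:79053483-79115099, plus strand) and Vcan on chromosome 13 (chr13:89655312-89742509, minus strand), and RefSeq promoter windows were matched for 6 of the 10 genes. The 250 bases before the RefSeq start of these 2 core protein genes are shown because Acan was called in the DA and Vcan was not. Coordinates are on GRCm38.p6, and capitals mark a match to any of 6 motifs searched on both strands.
Acan, chr7:79052976-79053225, plus strand: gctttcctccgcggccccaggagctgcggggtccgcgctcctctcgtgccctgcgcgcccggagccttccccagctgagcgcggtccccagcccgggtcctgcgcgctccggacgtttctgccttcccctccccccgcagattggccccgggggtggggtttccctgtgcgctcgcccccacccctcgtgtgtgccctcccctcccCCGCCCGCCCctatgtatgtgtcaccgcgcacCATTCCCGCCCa
Vcan, chr13:89742513-89742762, minus strand: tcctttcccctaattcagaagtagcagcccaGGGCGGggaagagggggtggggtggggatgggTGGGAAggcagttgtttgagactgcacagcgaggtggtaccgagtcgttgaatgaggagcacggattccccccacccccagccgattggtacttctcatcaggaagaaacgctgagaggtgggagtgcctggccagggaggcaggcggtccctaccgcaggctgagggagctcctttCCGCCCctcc

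The motifs were the GC box core GGGCGG, the TATA box TATAAA, the AP-1 motif TGANTCA, the TEAD motif GGAATG, the RBPJ motif TGGGAA and the CArG box of serum response factor. In the Acan window, GGGCGG stood 3 times on the minus strand, with 1 of those matches overlapping the single GGAATG by 1 base and the other 2 overlapping each other. In the Vcan window, GGGCGG stood once on each strand and TGGGAA once. Over the 32851 promoter windows of the table, 32.7% held GGGCGG, 12.6% GGAATG, 21.6% TGGGAA, 12.4% TATAAA, 6.75% TGANTCA and 1.47% a CArG box. The GC content was 74.4% in the Acan window and 62.4% in the Vcan window, beside a median of 52.4% over all windows. These matches describe letters in the window, and no binding was measured here.

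Acan was 247, 269, 272, 221 and 297 CPM in Prdm6-deficient DA replicates 1, 2, 5, 6 and 7. Control DA ranged from 33.9 to 166 CPM with a median of 64.1 CPM. All Prdm6-deficient libraries were above all control libraries, and the control libraries differed among themselves more than the Prdm6-deficient ones. The mean rose from 85.6 ± 47.7 CPM (SD, n = 7) to 261 ± 28.5 CPM (SD, n = 5), a fitted 3.05-fold increase (log2 fold change 1.61, SE 0.26, adjusted p = 6.73e-05). Within runs, the log2 fold change of Acan was 1.67 in the first (adjusted p = 0.0354, not called) and 1.67 in the second (adjusted p = 0.00434).

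In the aorta Acan was high in both genotypes. The Prdm6-deficient replicates 1 to 5 held 337, 200.1, 171, 213 and 299 CPM, and control aorta ranged from 239 to 354 CPM with a median of 305 CPM. The groups overlapped, and the log2 fold change was -0.29 (95% interval -0.84 to 0.26, adjusted p = 0.786). The genotype difference in the DA exceeded that in the aorta by 1.90 on the log2 scale (SE 0.38, adjusted p = 0.00179). Control DA held less Acan than control aorta (log2 fold change -1.80, SE 0.25, adjusted p = 9.09e-06) with no overlap, and the Prdm6-deficient vessels differed by 0.10 (95% interval -0.47 to 0.67, adjusted p = 0.965). The genotype difference in the DA, the test of the 2 vessels and the control vessel comparison share control DA libraries and are not independent.

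Aggrecan is a cartilage protein, so markers of cartilage were measured beside it. Their summed level over 9 genes was 11.8 to 26.3 CPM in the Prdm6-deficient DA and 11.2 to 59.8 CPM in control DA. Acan alone was 221 to 297 CPM in the former and 33.9 to 166 CPM in the latter. Matn1 had 0 counts in every DA library, which allows up to 3 counts in each, and Col2a1, the major collagen of cartilage, averaged 0.633 CPM in the Prdm6-deficient DA and 0.944 CPM in control DA. None of the 7 cartilage markers that passed the filter was called in the DA, and by sign 4 were higher and 3 lower in the Prdm6-deficient DA. The part of cartilage cells in the Acan result was not tested. The genes most like Acan over the 23 libraries were Spon1 (Pearson r = 0.98), Gucy1a1 (0.97) and Ramp1 (0.96), and among the other matrix genes Fn1 ran opposite to it (r = -0.83), again with differences between groups included.

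In the DA Vcan was 323, 278, 313, 284 and 298 CPM in the Prdm6-deficient replicates 1, 2, 5, 6 and 7 and 216 to 330.4 CPM in control DA, with a median of 269 CPM. These groups overlapped (log2 fold change 0.18, 95% interval -0.01 to 0.36, adjusted p = 0.228). In the aorta, Prdm6-deficient replicates 1 to 5 held 394, 354, 326, 333 and 384 CPM and control libraries 234 to 292 CPM, with a median of 260.2 CPM. Here the groups did not overlap, and the test gave a log2 fold change of 0.46 (SE 0.09, adjusted p = 0.00220), below the fold limit for a call. The difference between the vessels was -0.28 (adjusted p = 0.283), so a larger change in the aorta was not shown. Gene totals do not resolve the splice forms of versican. Over the 23 libraries Vcan was most like Atp2b1 (Pearson r = 0.82), Ptx3 (0.81), whose product binds the hyaluronan matrix, and Clec14a (0.81).

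In the Prdm6-deficient aorta against control aorta, 2.45% of all tested genes were called, 1.63% higher and 0.826% lower, and 6.95% did not overlap, 3.92% with higher and 3.04% with lower levels. Of the 10 matrix genes, Hapln1 and Lum were called higher and none was called lower. Levels of Hapln1, Lum, Has2 and Vcan were higher and those of Cd44 lower with no overlap. Markers of other cell types moved with genotype there too. All 7 endothelial markers had higher levels, 3 of them called, with a sum of 873 to 1137 CPM against 539 to 896 CPM, and all 8 leukocyte markers had lower levels, 0 of them called, with a sum of 54.7 to 92.6 CPM against 100.3 to 197 CPM. The summed level of 7 neuron markers was 41.6 to 84.9 CPM against 19.6 to 34.0 CPM. The part of these cell types in the results for the aorta was not tested. The median log2 fold change of the 10 was 0.11, beside -0.001 over all tested genes.

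**Figure D2:**
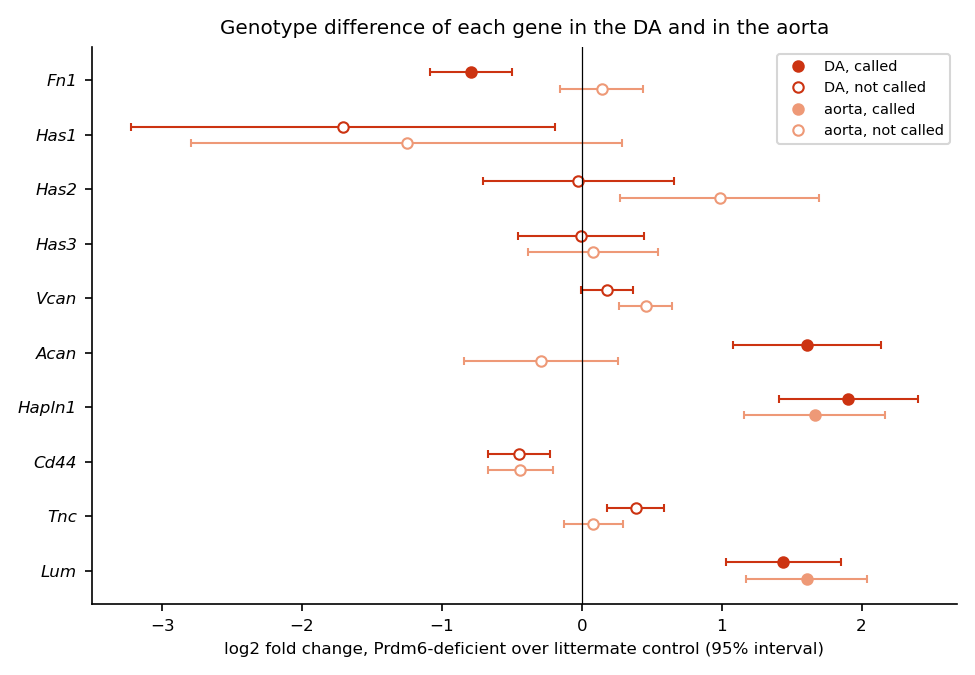
The log2 fold change of each gene, Prdm6-deficient over littermate control, is plotted with its 95% interval for the DA (dark) and the aorta (light); filled points were called. Hapln1 and Lum lay above 1.4 in both vessels, and Fn1 and Acan were called in the DA alone, where the difference between the vessels was also called for these 2 genes.

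Hapln1 encodes the link protein that stabilises the bond between hyaluronan and the lecticans, the family of versican and aggrecan. It lies on chromosome 13 (mm10, chr13:89539796-89611652, plus strand), 43.7 kb from Vcan with no coding gene between them and with the 2 genes ending towards each other. Prdm6-deficient DA replicates 1, 2, 5, 6 and 7 held 36.2, 20.8, 41.8, 30.6 and 17.1 CPM of Hapln1. Control DA held 4.73 to 12.4 CPM with a median of 7.40 CPM. All Prdm6-deficient libraries were above all controls, and the 3 of the first run were above the 2 of the second. The increase was 3.75-fold (29.3 ± 10.3 against 7.84 ± 2.58 CPM, log2 fold change 1.91, SE 0.24, adjusted p = 2.28e-06), which was the largest of the 10 genes in the DA.

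The rise of Hapln1 held in both vessels. In the Prdm6-deficient aorta replicates 1 to 5 held 71.4, 55.1, 62.9, 45.2 and 61.1 CPM, and control aorta 9.34 to 28.3 CPM with a median of 19.1 CPM. The groups did not overlap (log2 fold change 1.66, SE 0.25, adjusted p = 4.55e-05), and the 2 vessels' differences were 0.24 apart (95% interval -0.46 to 0.95, adjusted p = 0.831). Control DA was below control aorta (log2 fold change -1.25, SE 0.23, adjusted p = 0.000352) although single libraries overlapped. The Prdm6-deficient DA was below the Prdm6-deficient aorta in every library, with a log2 difference of -1.01 (SE 0.26) that was not called (adjusted p = 0.0536).

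Within the first run the log2 fold change of Hapln1 in the DA was 2.23 (adjusted p = 0.000583), and within the second it was 1.27 (adjusted p = 0.0293, not called). In the aorta the second run gave 1.78 (adjusted p = 0.00104). Hapln1 was most like Epha3 (Pearson r = 0.94), Kctd12 (0.93) and Ndufv3 (0.92) over the 23 libraries. Among the matrix genes its level ran with Lum (r = 0.76) and opposite to Cd44 (r = -0.86). These values too include the differences between groups.

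Lum encodes lumican, a small leucine-rich keratan sulfate proteoglycan that spaces collagen fibrils. It lies on chromosome 10 (mm10, chr10:97565128-97572703, plus strand). In the Prdm6-deficient DA Lum was 511, 555, 431, 441 and 478 CPM in replicates 1, 2, 5, 6 and 7, and in control DA 109.9 to 312 CPM with a median of 143 CPM. No library overlapped, and control DA replicate 1 was the highest control. It also had the highest sum of fibroblast markers in its group, a sum that includes Lum itself. The log2 fold change was 1.44 (SE 0.20, adjusted p = 8.91e-06), and leaving out any 1 of the 23 libraries gave 1.35 to 1.64.

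Lum was higher in the Prdm6-deficient aorta as well. Prdm6-deficient replicates 1 to 5 held 514, 454, 522, 574 and 466 CPM of Lum and control libraries 118 to 208 CPM, with a median of 173 CPM. The groups were far apart (log2 fold change 1.61, SE 0.21, adjusted p = 8.62e-06), and the difference between the vessels was -0.17 (95% interval -0.76 to 0.43, adjusted p = 0.874). Within the first and the second run the log2 fold change of Lum in the DA was 1.34 (adjusted p = 0.0164, not called) and 1.55 (adjusted p = 0.00208). In the aorta the second run gave 1.60 (adjusted p = 0.000682). The genes most like Lum were Marcks (Pearson r = 0.94), Tns3 (0.93) and Rergl (0.92).

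Lum is itself a fibroblast marker, and it was measured beside the others of that list. Over all tested genes, 2.61% were called higher in the DA and 1.63% in the aorta. In the DA, 3 of the 8 fibroblast markers were called higher, namely Lum, Postn (log2 fold change 1.38, SE 0.17, adjusted p = 1.38e-06) and Col3a1 (0.73, SE 0.17, adjusted p = 0.00345), and none lower. In the aorta Lum and Postn were called higher, while the sum of all 8 was 11230 to 13500 CPM in Prdm6-deficient and 9742 to 12440 CPM in control libraries. The collagen-binding proteoglycan Dcn, also on the list, had log2 fold changes of 0.30 in the DA (adjusted p = 0.459) and -0.30 in the aorta (adjusted p = 0.695). The part of a changed fibroblast share in the Lum result was not tested.

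Tnc encodes tenascin-C, a hexameric glycoprotein that binds fibronectin and versican and loosens cell attachment. It lies on chromosome 4 (mm10, chr4:63959785-64047015, minus strand). In the Prdm6-deficient DA Tnc was 385, 278, 323, 313 and 262 CPM in replicates 1, 2, 5, 6 and 7, and in control DA 215 to 301 CPM with a median of 225 CPM. The groups overlapped, and the log2 fold change of 0.39 (SE 0.10, adjusted p = 0.00944) passed the threshold on p but not the fold limit. Without 1 or another library it ranged from 0.30 to 0.45, with an adjusted p of up to 0.0534. In the aorta Tnc was 258 to 324 CPM in Prdm6-deficient and 217 to 300.0 CPM in control libraries (log2 fold change 0.08, 95% interval -0.13 to 0.30, adjusted p = 0.877). Tnc was most like Cpq, Col5a2 and Fkbp9 (Pearson r = 0.78 for each).

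Cd44 encodes the principal hyaluronan receptor of the cell surface. It lies on chromosome 2 (mm10, chr2:102811141-102901665, minus strand). Prdm6-deficient DA replicates 1, 2, 5, 6 and 7 held 51.2, 37.1, 42.8, 42.5 and 51.8 CPM, and control DA 51.7 to 73.8 CPM with a median of 61.4 CPM. Only the edges of the groups met, and the log2 fold change was -0.45 (SE 0.11, adjusted p = 0.00554), inside the fold limit. In the aorta, Prdm6-deficient replicates 1 to 5 held 26.5, 34.0, 34.5, 35.0 and 29.3 CPM and control libraries 36.6 to 49.7 CPM, with a median of 42.6 CPM. All Prdm6-deficient aortas were below all controls, by a log2 fold change of -0.44 (SE 0.11, adjusted p = 0.0172). The difference between the vessels was -0.01 on the log2 scale (95% interval -0.33 to 0.31).

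Cd44 was higher in the DA than in the aorta in both genotypes. The log2 difference was 0.51 between the controls (SE 0.10, adjusted p = 0.000919, called) and 0.50 between the Prdm6-deficient vessels (SE 0.12, adjusted p = 0.0332, not called), with no overlap in either. The call between the controls sat at the fold limit, with 0.46 to 0.55 when 1 library was left out. Its closest genes were Clca3a1 (Pearson r = 0.89), Prkag2 (0.87) and Tnfrsf21 (0.86).

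Per kb of exon, the 3 hyaluronan synthases held the lowest levels of the 10 genes, joined in control DA by Hapln1. Has2 makes the long hyaluronan of the embryonic heart and vessels, and lies on chromosome 15 (mm10, chr15:56665627-56694539, minus strand). In the Prdm6-deficient DA Has2 was 8.91, 9.14, 6.0, 3.91 and 8.24 CPM in replicates 1, 2, 5, 6 and 7, and in control DA 2.01 to 13.2 CPM with a median of 7.07 CPM. The Prdm6-deficient libraries lay inside the control range, and the log2 fold change was -0.03 with a 95% interval of -0.71 to 0.66 (adjusted p = 0.978). A difference of Has2 inside that interval could not be told from no difference with these libraries. A larger one could also miss the call, as in the aorta below. The runs pointed opposite ways, with -0.78 in the first (adjusted p = 0.496) and 0.53 in the second (adjusted p = 0.559).

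In the aorta Has2 was 6.31, 10.6, 6.93, 6.79 and 8.34 CPM in Prdm6-deficient replicates 1 to 5 and 2.0 to 6.18 CPM in control libraries, with a median of 4.23 CPM. The groups did not overlap, but the lowest Prdm6-deficient and the highest control library were close. The log2 fold change was 0.98 (SE 0.35, 95% interval 0.28 to 1.69) and was not called (adjusted p = 0.117). Over the alternatives its adjusted p ran from 0.0274 to 0.294. The difference between the vessels was -1.01 (95% interval -2.0 to -0.02, adjusted p = 0.298), and control DA exceeded control aorta by 0.90 (adjusted p = 0.0736). Has2 was most like Ntn4 (Pearson r = 0.75), Cpne6 (0.74) and Fmnl2 (0.72).

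Has1 lies on chromosome 17 (mm10, chr17:17843323-17855205, minus strand). On average it was the lowest of the 10 genes per kb of exon in every group. In control DA it was below Hapln1 in 4 of 7 libraries. It had 0, 0.852, 1.24, 1.55 and 1.91 CPM in Prdm6-deficient DA replicates 1, 2, 5, 6 and 7, where 0 counts in replicate 1 allow up to 3 counts. Control DA split into libraries at 0.612 to 1.01 CPM (replicates 3, 5 and 7) and libraries at 4.18 to 7.80 CPM (replicates 1, 2, 4 and 6). The groups overlapped, and the log2 fold change of -1.71 (SE 0.74) was not called (adjusted p = 0.146). In the aorta it was -1.25 (adjusted p = 0.540), from 0.321 to 1.35 CPM against 0.416 to 2.37 CPM.

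Has3 lies on chromosome 8 and ran at 5.25 to 13.5 CPM in the Prdm6-deficient DA and 7.63 to 13.8 CPM in control DA (log2 fold change -0.01, 95% interval -0.46 to 0.45, adjusted p = 0.991). In the aorta it was 13.0 to 17.4 CPM against 9.34 to 18.1 CPM (log2 fold change 0.08, adjusted p = 0.971). No group of Has3 stood apart. Exons at its end overlap those of Chtf8 on the opposite strand, which had 54554 counts in all against 5626 for Has3. The sources used here do not say whether counting used the strand, so part of the Has3 level may belong to Chtf8, which averaged 115 CPM in the Prdm6-deficient DA and 129 CPM in control DA. The antisense gene Has2os held 212 counts in all against 2968 for Has2.

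**Figure D3:**
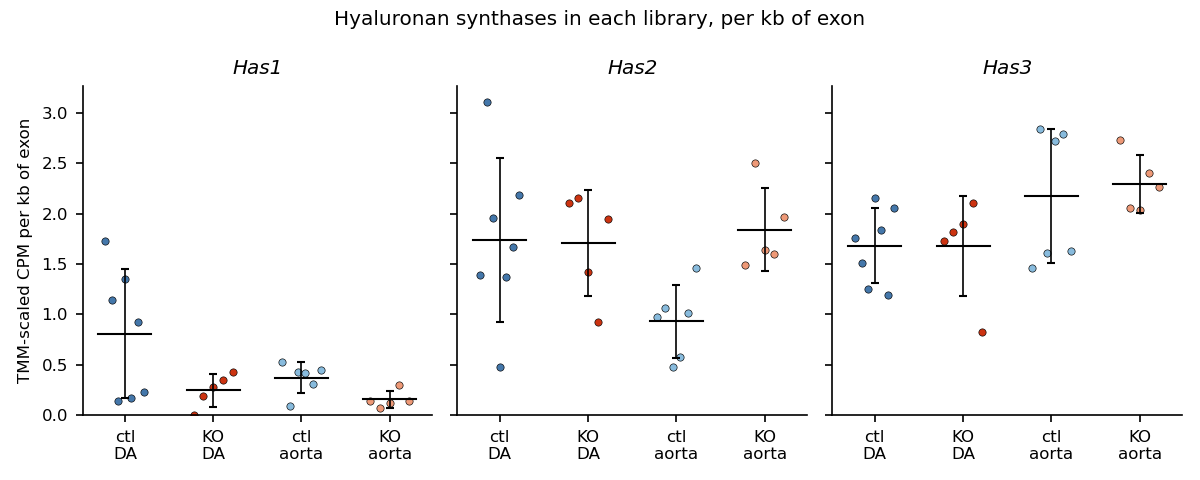
TMM-scaled CPM per kb of exon for Has1, Has2 and Has3 in every library (points) with mean and SD (bars), on 1 linear y axis from 0. Has1 was lowest on average in each group, and Has2 was below Has3 in the control aorta but similar to it in both DA groups.

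Per kb of exon the synthases can be set against each other. Has2 made up 46.9 ± 13.5% (SD, n = 5) of the summed synthase level in the Prdm6-deficient DA, 40.9 ± 16.1% (n = 7) in control DA, 42.7 ± 7.75% (n = 5) in the Prdm6-deficient aorta and 26.7 ± 9.39% (n = 6) in control aorta. Has3 made up 46.0%, 40.9%, 53.6% and 61.9% on average in the same order, and Has1 the rest. These shares are transcripts per length and say nothing of how much hyaluronan each enzyme made. Any Chtf8 reads counted as Has3 would alter them, and also the order of Has2 and Has3.

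Across all 10 genes, the order of levels in CPM per kb of exon differed between the groups. In control DA Fn1 was highest at 269 ± 51.9, ahead of Lum at 72.6 ± 32.4, Tnc at 30.7 ± 4.29, Vcan at 18.3 ± 2.87, Acan at 11.5 ± 6.38 and Cd44 at 9.09 ± 1.21. In the Prdm6-deficient DA Lum at 197 ± 21 stood ahead of Fn1 at 155 ± 36.0, a pair whose mean and SD ranges met although Lum was the higher in 4 of 5 libraries. This order depends on the length used: per kb of the longest transcript, an alternative chosen after seeing the data, Lum was the higher in 2 of 5. Then came Tnc at 40.1 ± 6.12, Acan at 35.0 ± 3.81, Vcan at 20.7 ± 1.32, Cd44 at 6.65 ± 0.924 and Hapln1 at 4.97 ± 1.75. Acan thus stood above Vcan in 5 of 5 Prdm6-deficient DA libraries, whereas Vcan stood above Acan in 6 of 7 control DA libraries.

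The aorta had its own order. In control aorta Fn1 (131 ± 19.2 CPM per kb) led, ahead of Lum (67.8 ± 14.1), Acan (39.9 ± 6.32) and Tnc (35.4 ± 4.07), and the ranges of Acan and Tnc met. In the Prdm6-deficient aorta Lum (207 ± 19.5) led Fn1 (145 ± 22.5) in 5 of 5 libraries, but in 2 of 5 per kb of the longest transcript, and Hapln1 stood above Cd44 (4.70 ± 0.551) in 5 of 5, the reverse of their order in control aorta. Has2 and Has3 followed each other in every group. Their ranges met in both DA groups and in the Prdm6-deficient aorta, while in control aorta Has3 (2.18 ± 0.669) was above Has2 (0.929 ± 0.358) in 6 of 6 libraries.

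Between the control vessels, 5.36% of all tested genes were called, 3.16% higher and 2.19% lower in the DA, and of the 10 genes Fn1 and Cd44 were called higher and Acan and Hapln1 lower. Levels of Fn1, Cd44 and Acan did not overlap there, a separation that 3.01% of all tested genes showed with higher and 2.36% with lower levels in the DA (5.36% in all). Between the Prdm6-deficient vessels, 0.267% of all tested genes and none of the 10 were called, and Hapln1 and Vcan were lower and Cd44 higher in the DA without overlap, a separation shown by 3.52% of all tested genes, 1.68% with higher and 1.84% with lower levels. The Fn1 and Acan values that set the control vessels apart are given above with their intervals in the Prdm6-deficient vessels.

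The other genes of the pathway were read from lists of symbols. Ugdh, Hyal2, Bgn, Dcn, Itga5, Postn, Col3a1, Col2a1, Matn1 and Xylt2 were not named by a rule but chosen after their values were seen. None of 9 tested genes that supply sugar precursors of hyaluronan was called in the DA, with Ugdh, the enzyme that makes UDP-glucuronic acid, at a log2 fold change of -0.04 (adjusted p = 0.876). None of 18 tested genes for hyaluronan binding and breakdown was called there either. The calls over all tested genes were 5.43% in the DA and 2.45% in the aorta. The hyaluronidase gene Hyal2 had a log2 fold change of 0.11 (adjusted p = 0.554). In the aorta the second list held 1 called gene, Ptx3, named here after its values were seen, which rose from 4.99 to 38.4 CPM (log2 fold change 2.94, SE 0.25, adjusted p = 5.70e-09). Pentraxin 3, its product, crosslinks hyaluronan in the matrix around the oocyte.

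Versican and aggrecan carry chondroitin sulfate chains. Of 21 tested genes for the synthesis of chondroitin and dermatan sulfate, 4 were called higher and 2 lower in the DA, beside 5.43% of all tested genes called, with a median log2 fold change of 0.22. The highest were Csgalnact1 (9.07 to 24.6 CPM, log2 fold change 1.44, SE 0.31, adjusted p = 0.00192), which starts the chain, Chst15 (9.06 to 18.5 CPM, log2 fold change 1.03, adjusted p = 0.00109), a sulfotransferase, and Xylt1 (9.51 to 18.2 CPM, log2 fold change 0.94, adjusted p = 0.00689), which adds the xylose to the core protein. Its paralog Xylt2 was the other called gene with a higher level. The 4-O-sulfotransferases Chst11 (17.7 to 6.81 CPM, log2 fold change -1.38, adjusted p = 0.00297) and Chst12 (63.3 to 44.2 CPM, log2 fold change -0.52, adjusted p = 0.000788) fell. In the aorta, Xylt2 alone was called, beside 2.45% of all tested genes.

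**Figure D4:**
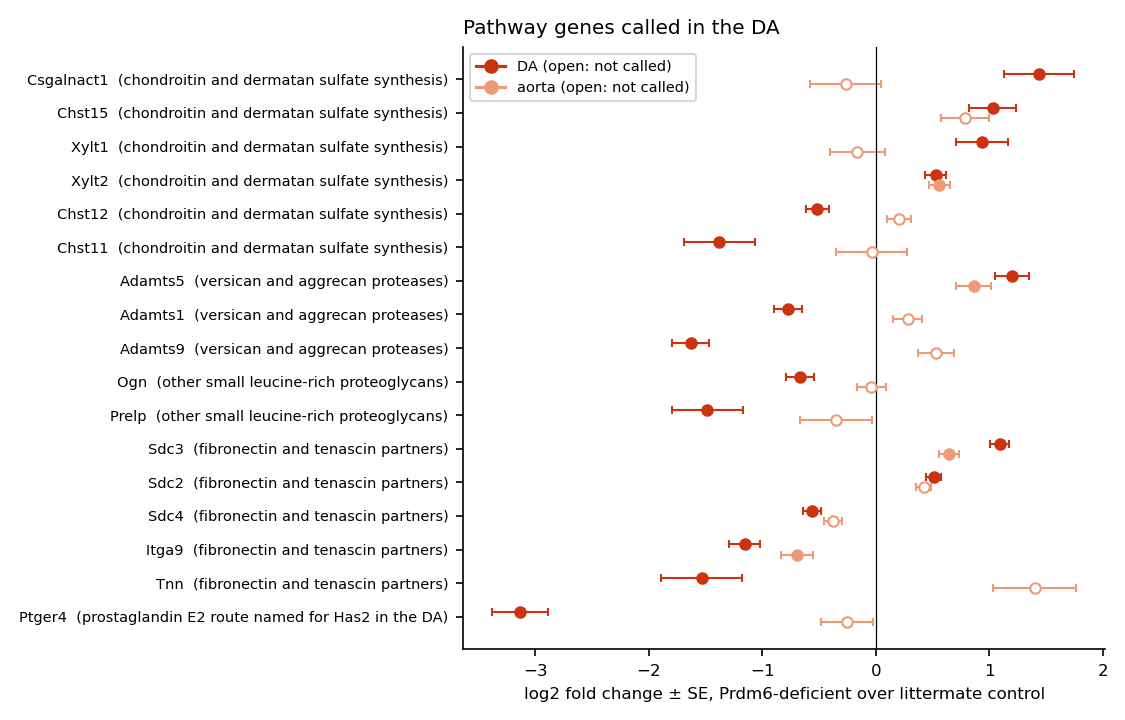
For each pathway gene called in the DA, the log2 fold change ± SE, Prdm6-deficient over littermate control, is plotted for the DA (dark) and the aorta (light), with open points where a gene was not called. Ptger4 fell furthest in the DA, and Xylt2, Adamts5, Sdc3 and Itga9 were called in both vessels.

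Among 7 proteases that cut versican and aggrecan, Adamts5 rose from 45.0 to 103 CPM in the DA (log2 fold change 1.20, SE 0.15, adjusted p = 1.90e-06), and Adamts9 fell from 311 to 101 CPM (log2 fold change -1.63, SE 0.16, adjusted p = 7.06e-08) and Adamts1 from 336 to 196 CPM (log2 fold change -0.77, SE 0.13, adjusted p = 7.57e-05). In the aorta Adamts5 was also called higher (log2 fold change 0.86, adjusted p = 0.000579). Beside these calls, 5.43% of all tested genes were called in the DA and 2.45% in the aorta. The genotype differences of Adamts9 and Adamts1 were lower in the DA than in the aorta, by 2.16 (adjusted p = 1.17e-06) and 1.06 (adjusted p = 0.000327) on the log2 scale.

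Of 11 other small leucine-rich proteoglycan genes tested, none was called higher in the DA, and Prelp (17.4 to 6.24 CPM, log2 fold change -1.48, adjusted p = 0.00176) and Ogn (347 to 218 CPM, log2 fold change -0.67, adjusted p = 0.000377) were called lower. Bgn, which encodes biglycan, averaged 2829 CPM against 2653 CPM (log2 fold change 0.09, adjusted p = 0.560). In the aorta, Epyc was called higher (2.83 to 10.3 CPM, log2 fold change 1.86, adjusted p = 0.000698) and was named after its values were seen. The shares called over all tested genes were 5.43% in the DA and 2.45% in the aorta.

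Partners of fibronectin and tenascin were a mixed group as well, beside 5.43% of all tested genes called in the DA and 2.45% in the aorta. In the DA 2 of 15 tested genes were called higher, Sdc3 (199.8 to 426 CPM, log2 fold change 1.09, SE 0.08, adjusted p = 1.26e-09) and Sdc2 (188 to 267 CPM, log2 fold change 0.51, adjusted p = 2.78e-06), which encode membrane heparan sulfate proteoglycans. Tnn, a tenascin gene (38.9 to 13.4 CPM, log2 fold change -1.53, adjusted p = 0.00422), Itga9, an integrin subunit that binds tenascin-C and a splice form of fibronectin (552 to 248 CPM, log2 fold change -1.16, adjusted p = 1.31e-06), and Sdc4 (91.0 to 61.7 CPM, log2 fold change -0.56, adjusted p = 7.63e-06) were called lower. Itga5, which encodes a subunit of the classical fibronectin receptor, had a log2 fold change of -0.14 (adjusted p = 0.498). In the aorta 1 of these genes was called higher, Sdc3, and 3 lower, Itga8, Itga9 and Itgb3, named after their values were seen.

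Of 11 tested genes of the prostaglandin E2 route, Ptger4 was the only one called in the DA, beside 5.43% of all tested genes. Its levels in Prdm6-deficient DA replicates 1, 2, 5, 6 and 7 were 19.6, 26.1, 13.2, 31.1 and 21.1 CPM, and in control DA they ranged from 134 to 256 CPM with a median of 164 CPM. The log2 fold change was -3.13 (SE 0.25, adjusted p = 2.03e-09), with no overlap. Beside it stood the level of Has2 in the same libraries, with the log2 fold change of -0.03 given above. In the aorta Ptger4 was 19.1 to 31.0 CPM in Prdm6-deficient and 22.0 to 55.9 CPM in control libraries (log2 fold change -0.25, adjusted p = 0.778).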

How the data were processed

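The authors aligned paired reads to mm10 with STAR and estimated gene levels with RSEM, as their methods and the submitters' processing notes state. Versions are not given in the sources used here, and the annotation is called GENCODE version 20. The deposited values are RSEM expected counts per gene, not scaled for depth or length, in which reads that fit several genes are divided among them. Samples were mapped to columns by their descriptions. Replicate 4 of the Prdm6-deficient DA is not analysed here, and 0 columns were left unmapped.

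Expected counts were rounded. Symbols and coordinates came from GENCODE M21 on mm10, where 54723 of 54752 identifiers matched without their version. edgeR 4.0.16 in R 4.3.3 used filterByExpr, TMM factors, 1 mean per group over 23 libraries and the quasi-likelihood test, with Benjamini-Hochberg adjustment over 16463 genes. Levels per kb use the union of a gene's exons. SE is the log2 fold change over the root of F, and values after ± are SDs. Alternatives used DESeq2 1.42.0 and limma 3.58.1 (voom). Likeness is Pearson's r of log2 CPM with a prior count of 2. The procedure was tested on simulated data. Promoter windows were RefSeq's, and figures used matplotlib 3.10.9. Replicates came from separate embryos or pools. Depth limits cover counting error only.

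The 10 genes, the lists and the tests were chosen with earlier results of these data known. Named are all 10, Ptger4 and Prdm6, the 3 genes most like each of the 10, genes overlapping them, and of each list the genes called in the DA, at most 3 per direction by size of the log2 fold change. Other list genes in the text were chosen after their values were seen.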

Additional observations from a re-analysis of the deposited data

Results flagged for a closer look

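The genotype difference of Fn1 was lower in the DA than in the aorta by a log2 value of -0.94 (adjusted p = 0.00419), and that of Acan was higher in the DA by 1.90 (adjusted p = 0.00179). Both were tested as the difference between the vessels itself. The Fn1 call was lost without any 1 of Prdm6-deficient DA replicates 2 and 7 or Prdm6-deficient aorta replicates 1 and 5, where the adjusted p reached 0.0127, and without the pooled libraries (-0.87, adjusted p = 0.0191), whereas the second run alone gave -1.32 (adjusted p = 0.00153). The Acan call held without each single library and was lost in the second run alone (1.77, adjusted p = 0.0426). The only Prdm6-deficient DA libraries of the second run are replicates 2 and 7. In 40 groups of libraries, 1 for each gene and group, 0 had a library beyond Dixon's critical value.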

How the results depend on the processing

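Of the 10 genes, 4 were called in the DA. Leaving out 1 library gave 4 to 5, an adjusted p below 0.05 with no fold limit gave 6 (Cd44 and Tnc joined), and the first run alone, with 2 control DA libraries, gave 1. For the aorta, an adjusted p below 0.05 with no fold limit gave 4 genes in place of 2. Between the Prdm6-deficient vessels 0 were called, against 1 at an adjusted p below 0.05 with no fold limit, 2 by DESeq2 (Hapln1 and Cd44), 1 by limma-voom and 1 with the animal as a random effect (Hapln1). For the difference between the vessels 2 were called, against 1 in the second run alone, 1 without the pooled samples and 1 to 2 with 1 library left out. The first run held 1 control aorta library, so its within-run values are missing for the aorta and for the difference between the vessels.

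Of 28 pairs of libraries with the same replicate number, 25 came from different embryos. Deviations from the group means correlated at -0.05 to 0.13 over the 28 pairs and at -0.02 to 0.08 over the 10 pairs that shared an embryo. Over the 162 pairs that shared neither number nor embryo they correlated at -0.10 to 0.10. The numbers were thus not taken as pairs. The main fit took no account of shared embryos, and the fit with the animal as a random effect estimated a correlation of 0.0337 within animals. With the replicate block, 4, 2, 4, 0 and 2 of the 10 genes were called in the 5 comparisons, as without it. The block turned the sign of values near 0, to -0.0113 for Vcan between the controls, and to -0.0339 for Acan and 0.0147 for Lum between the Prdm6-deficient vessels.

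Signs turned only for differences that were not called. In the DA, Has2 moved to 0.0107 with limma-voom, 0.0098 with the animal as a random effect, 0.53 in the second run (-0.78 in the first) and 0.18 without the controls with Cre, and Has3 to 0.0326 with the run as a covariate and 0.47 in the first run. Leaving out 1 library gave -0.19 to 0.18 for Has2 and -0.10 to 0.17 for Has3 in the DA, and -0.0127 to 0.17 for Has3 in the aorta. Between the controls, Vcan was -0.0128 without the controls with Cre, and leaving out 1 library gave -0.0463 to 0.0616 for Vcan and -0.10 to 0.19 for Lum. Between the Prdm6-deficient vessels, the second run gave -0.39 for Fn1, 0.041 for Has2, -0.17 for Tnc and 0.11 for Lum, the first run gave -0.0303 for Has1, and leaving out 1 library gave -0.0067 to 0.19 for Fn1, -0.21 to 0.0483 for Has2 and -0.0045 to 0.24 for Acan. For the difference between the vessels, the second run gave 0.0854 for Has1, -0.51 for Hapln1 and 0.11 for Cd44. Leaving out the pooled samples gave 0.0315 for Has1 and 0.0098 for Cd44. Upper-quartile factors gave 0.0066 and leaving out the controls with Cre 0.0014 for Cd44. Leaving out 1 library gave -0.18 to 0.0897 for Has3, -0.0655 to 0.055 for Cd44 and -0.26 to 0.0299 for Lum. The cause was not tested.

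Cd44 between the controls fell just below the fold limit with upper-quartile factors (0.50), with the run as a covariate (0.50), and without the controls with Cre (0.50), and in the second run (0.46, adjusted p = 0.0299) it missed both limits. Over all tested genes, 894 were called in the DA, 404 in the aorta, 44 between the Prdm6-deficient vessels and 425 for the difference between the vessels. The second run alone gave 419, 226, 6 and 166, and the first run gave 201 in the DA and 3 between the Prdm6-deficient vessels. That last comparison also ran from 15 without the pooled samples and 17 with the replicate block to 83 with its own samples only and 137 by DESeq2. Has1 had 11 to 168 and Has2 30 to 261 counts per control DA library, and how much of the width of their intervals comes from depth was not tested. Lum exceeded Fn1 in 2 of 5 libraries of each Prdm6-deficient vessel per kb of the longest transcript, against 4 and 5 of 5 per kb of all exons.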
